A study of Rattus norvegicus with 108 samples.

Results

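The genes described here are 7 of the 19127 gene symbols in the count tables of dorsal (dorDG) and ventral (venDG) dentate gyrus: *C1qa*, *C1qb*, *C1qc*, *Cx3cr1*, *P2ry12*, *Csf1r* and *Aif1*. They were taken by symbol, as a panel of microglial complement and homeostatic genes, and all 7 were found in both tables. Levels are given as unique molecular identifiers (UMIs) per 10000 UMIs of the same cells, summed per replicate. The assay counts a tag at the 3′ end of each transcript, so levels were not divided by transcript length.

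The data are droplet-based RNA profiles of tissue micro-punched from male Long-Evans rats from Charles River, 2 months old at the start, whose treatment lasted 6 weeks. The FT groups received fluoxetine, a serotonin reuptake inhibitor, in the drinking water at 18 mg per kg body weight per day, and the Sham groups received water. No gene was altered in any group. Groups were dorDG FT (4 replicates, 570 cells), dorDG Sham (5 replicates, 719 cells), venDG FT (5 replicates, 1249 cells) and venDG Sham (5 replicates, 809 cells). Reactions that share a replicate number within a group were summed into a single replicate, and each replicate pooled tissue of 3 animals. Nothing in the labels ties a replicate to an animal. The methods give a single count of animals per treatment group, which 5 pools of 3 animals use up. Both regions therefore appear to come from the same animals, though which replicates share them is not stated. Replicate totals ran from 220162 to 1523537 UMIs. The labels speak of nuclei, whereas the methods prepared both whole-cell and nuclear suspensions, and neither assigns a reaction to one or the other. Of 3347 cells used, 1235 had fewer than 2% of their UMIs in ribosomal protein genes and are called ribosome-poor below. Among all barcodes, 9 occurred in more than 1 reaction, and 3 microglial cells carried such a barcode.

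Microglia are the resident phagocytes of the brain. C1q, assembled from the A, B and C chains that *C1qa*, *C1qb* and *C1qc* encode, is the recognition molecule of the classical complement pathway, is made in the brain mainly by microglia, and can tag synapses for removal. *Csf1r* encodes the receptor for CSF1 and IL-34 that microglia need to survive, *Cx3cr1* the receptor for the neuronal chemokine fractalkine, and *P2ry12* the ADP receptor that guides microglial processes. *Aif1* encodes the actin-binding protein Iba1, the usual stain for microglia. *Cx3cr1* and *P2ry12* are counted among the genes of resting microglia that fall when the cells are activated.

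The C1q chain genes lie side by side: *C1qb*, *C1qc* and *C1qa* are consecutive in the RefSeq gene table of the rat assembly GRCr8. The RefSeq promoter table held 4 of the 7 genes, and of these the *C1qa* and *C1qb* promoters are shown. Each sequence covers 250 bases before and 50 bases after the transcription start on the minus strand of chromosome 5, at chr5:154419884-154420183 for *C1qa* and chr5:154407778-154408077 for *C1qb*, and the starts are 12106 bases apart. Capitals mark GGAAGT, searched on both strands (ACTTCC on the other), the core letters bound by ETS-family factors such as PU.1.
C1qa: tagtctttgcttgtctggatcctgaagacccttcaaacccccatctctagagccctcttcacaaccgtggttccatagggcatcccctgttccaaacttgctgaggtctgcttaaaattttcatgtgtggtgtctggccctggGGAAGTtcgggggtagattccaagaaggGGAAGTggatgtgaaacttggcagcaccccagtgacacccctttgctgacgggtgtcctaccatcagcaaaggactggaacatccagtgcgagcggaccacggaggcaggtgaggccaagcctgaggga
C1qb: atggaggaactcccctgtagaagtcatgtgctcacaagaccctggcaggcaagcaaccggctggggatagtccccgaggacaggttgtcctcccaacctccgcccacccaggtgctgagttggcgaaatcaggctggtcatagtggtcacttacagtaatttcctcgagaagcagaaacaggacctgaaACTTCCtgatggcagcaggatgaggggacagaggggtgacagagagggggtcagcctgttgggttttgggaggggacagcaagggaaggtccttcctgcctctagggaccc
*C1qa* held the letters in 2 places, 107 and 79 bases before the start, and *C1qb* held them once, on the opposite strand 61 bases before the start. Of 33469 RefSeq promoters of the same length, 22.58% held them at least once, so the match is a description of these windows. The coordinates belong to GRCr8, which is not the build listed in the submitters' processing notes (rn5), and serve only to place the sequences.

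The first question was where the 7 genes were read among the 12 cell types that the authors named in dorDG. These names came from clustering that could use every gene, so levels by type are a description without a test. The C1q chain genes stood high in both microglial types, Microglia1 (107 cells) and Microglia2 (103 cells), and low in the other 10. *C1qa* was at 30.9 ± 4.80 UMIs per 10000 (SD, n = 9 replicates) in Microglia1 and 30.1 ± 11.4 in Microglia2, against 0.556 in InhibNeuron (the lowest) to 0.870 in AstroSub1 (the highest) among the other types. *C1qb* was at 35.9 ± 6.20 and 33.2 ± 11.4, against 0.157 in BergGlia to 1.39 in Mossy cells. *C1qc*, with the lowest level of the chains, was at 12.7 ± 2.36 and 11.2 ± 3.67, against 0 in BergGlia to 0.521 in AstroSub1. The Microglia1 level was thus 35.5, 25.8 and 24.5 times that of the highest other type for *C1qa*, *C1qb* and *C1qc*.

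Among the receptors, *Csf1r* had the same pattern, *Cx3cr1* had its highest mean in Microglia2, by less than the SD over replicates, and *P2ry12* was near its limit of detection. *Csf1r* was at 9.97 ± 3.03 UMIs per 10000 in Microglia1 and 12.1 ± 3.98 in Microglia2, and at most 0.480 elsewhere (Oligodend2). *Cx3cr1* was at 0.210 ± 0.222 in Microglia1, only 1.26 times its level in Granule cells (0.167), and at 1.08 ± 0.979 in Microglia2, which is 6.48 times that level, with replicates down to 0. *P2ry12* was at 0.0418 ± 0.0629 in Microglia1, where it rested on 3 UMIs, and at 0.199 ± 0.279 in Microglia2, on 7 UMIs. In AstroSub1 it was at 0.0848 on 1 UMI, so its order among types cannot be read at this depth. *Aif1* was again a microglial gene, at 12.2 ± 2.98 and 12.2 ± 3.92 in the microglial types and at most 0.519 in the others.

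**Figure D1:**
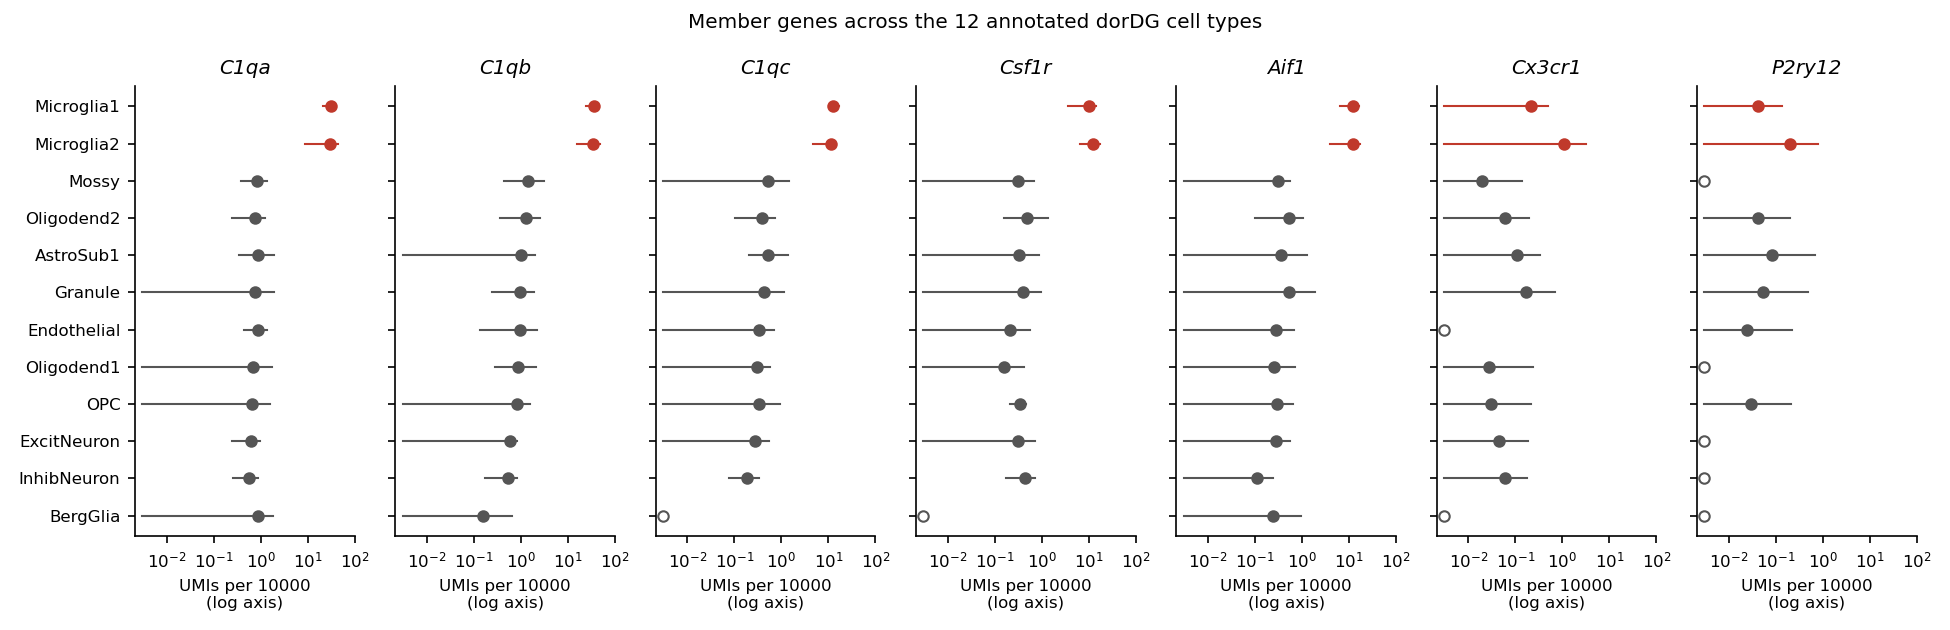
Level of each of the 7 genes (UMIs per 10000, log axis) in the 12 dorDG cell types; dots are means over replicates with at least 5 cells, lines run from the lowest to the highest replicate, open circles at the left edge are levels of 0, and red marks the microglial types. The C1q chains, *Csf1r* and *Aif1* are set apart in microglia, while *Cx3cr1* and *P2ry12* overlap the other types.

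In the order of the 12 types, neighbours differed by no more than the larger of their SDs almost throughout. For *C1qa*, *Csf1r* and *Aif1* the step from the microglial types to the next type was the only one that exceeded the spread. For *C1qb* and *C1qc* the last step, from InhibNeuron to BergGlia, did so as well, and BergGlia had the lowest median depth of the 12 types (43 cells, 1025 UMIs). For *Cx3cr1* and *P2ry12* no step exceeded the spread. Of all dorDG UMIs of a gene, microglia held 89.0% for *C1qa*, 88.6% for *C1qb*, 87.2% for *C1qc*, 86.5% for *Csf1r* and 88.6% for *Aif1*, but 69.6% for *Cx3cr1* (of 69 UMIs) and 58.8% for *P2ry12* (of 17 UMIs).

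The low C1q counts outside microglia were split among the chains much as the microglial ones. Of 996 C1q UMIs in the 10 other types, 37.3% were *C1qa* (exact 95% interval 34.3 to 40.4), 44.9% *C1qb* (41.8 to 48.0) and 17.8% *C1qc* (15.4 to 20.3). Microglia1 had 38.4%, 45.9% and 15.7% of 5203 UMIs, and Microglia2 40.2%, 44.4% and 15.4% of 2490. For *C1qc*, Granule cells had 23 of 86 C1q UMIs or 26.7% (17.8 to 37.4), the only interval, of all 3 chains in the 10 types, that missed the Microglia1 share. The intervals cover counting error only and were not adjusted for their number. Among all 7 genes, *Csf1r* made up 12.3% of the UMIs in the other types and 9.64% and 12.4% in Microglia1 and Microglia2, while *Aif1* made up 12.3% in Microglia1 and 12.9% in Microglia2. *Cx3cr1* took a larger share outside microglia, 1.55% against 0.239% and 0.945%, and so did *P2ry12*, 0.517% against 0.0448% and 0.207%. These shares rest on few UMIs and carry no interval. Of 69 *Cx3cr1* UMIs, 16 were in Microglia1 and 32 in Microglia2, and of 17 *P2ry12* UMIs 3 and 7.

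**Figure D2:**
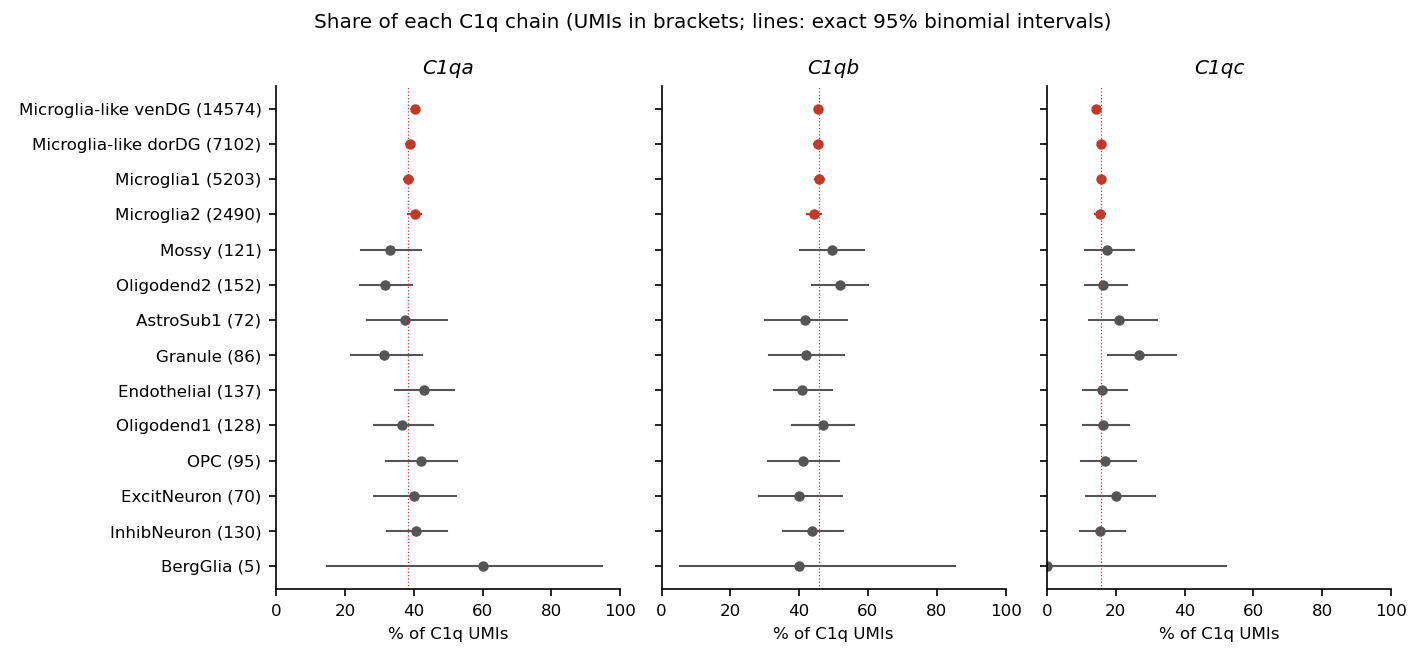
Share of each C1q chain gene among the C1q UMIs (percent) in every dorDG cell type and in Microglia-like cells of each region, with exact 95% binomial intervals; the dotted line is the Microglia1 share and red marks microglia. Among the 10 other types every interval holds the line except that of Granule cells for *C1qc* (17.8 to 37.4%).

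Per cell, detection depends on depth, and Microglia1 cells (median 6669 UMIs, 2237 genes) were deeper than Microglia2 cells (1925 UMIs, 952 genes). Each cell was therefore thinned to 1000 UMIs, which left out 3 Microglia1, 16 Microglia2 and 123 other cells. *C1qa* was then found in 92.3% of Microglia1 (exact 95% interval 85.4 to 96.6), 81.6% of Microglia2 (71.9 to 89.1) and 7.01% of the other cells (5.47 to 8.82; unthinned 99.1%, 82.5% and 24.8%). *Csf1r* was found in 57.7%, 51.7% and 2.72%, and *Aif1* in 68.3%, 57.5% and 3.24%. *Cx3cr1* was found in 2.88%, 3.45% and 0.209% of thinned cells, whereas unthinned shares were 9.35%, 23.3% and 1.76%. The source of the low shares in the other types, free RNA and mixed droplets included, was not tested.

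Over the 12 types, the genes most like the summed panel were *Ltc4s*, *Trem2*, *Rgs1*, *Dapp1*, *Tlr2*, *Fcgr3a*, *Slc15a3*, *Cd180*, *Cd74* and *RT1-Da* (Pearson r from 0.987 to 0.981 of log2 levels, the 10 highest of 3808 genes with at least 0.5 UMIs per 10000 in a microglial type; the points share libraries and depth, and no test applies). *Trem2*, a lipid receptor of microglia, was at 5.79 and 6.33 UMIs per 10000 in Microglia1 and Microglia2, and at most 0.314 elsewhere. *Cd74*, the invariant chain of MHC class II, was at 15.7 and 7.82. Within the panel, r over types was at least 0.928 between any pair of *C1qa*, *C1qb*, *C1qc*, *Csf1r* and *Aif1*, and 0.647 to 0.873 for pairs that held *P2ry12*.

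Microglia1 and Microglia2 were compared next, within each dorDG replicate and without a test, because clustering had used these genes. The C1q chains and *Aif1* differed in no constant direction. *C1qa* was higher in Microglia2 in 6 of 9 replicates, *C1qb* and *C1qc* in 3 of 9 and *Aif1* in 4 of 9, and the pooled ratios of Microglia2 to Microglia1 lay between 0.951 (*C1qb*) and 1.09 (*Aif1*). *Csf1r* was higher in Microglia2 in 7 of 9 replicates (pooled ratio 1.34, counting interval 1.18 to 1.52). *Cx3cr1* was higher in Microglia2 in 7 of 9, with a pooled ratio of 4.11 (32 against 16 UMIs, counting interval 2.19 to 8.01), although 4 Microglia1 and 2 Microglia2 replicates were at 0.

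The *Cx3cr1* levels of Microglia1 were 0.164, 0.493, 0, 0.390 and 0 in Sham replicates 1 to 5 and 0.343, 0, 0.504 and 0 in FT replicates 1, 2, 4 and 5. Those of Microglia2 were 0.414, 0, 3.14, 0 and 1.24 in Sham and 0.976, 0.784, 1.56 and 1.61 in FT. Every FT replicate was thus higher in Microglia2, whereas Sham replicates 2 and 4 had no *Cx3cr1* UMI in Microglia2 and Sham replicate 3 gave the highest value from 4 UMIs. *P2ry12* had a ratio of 4.79 with a counting interval of 1.09 to 28.7.

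Microglia2 also held more ribosome-poor cells (22.3% against 9.35%), and 51.5% of its cells had under 1000 genes, the minimum that the study's methods state, against 7.48% of Microglia1. *Csf1r* was higher in Microglia2 in 7 of 7 replicates among cells that were not ribosome-poor and in 6 of 6 among cells with at least 1000 genes (only replicates with at least 5 such cells in each type count). *Cx3cr1* was higher in 6 of 7 and in 6 of 6.

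**Figure D3:**
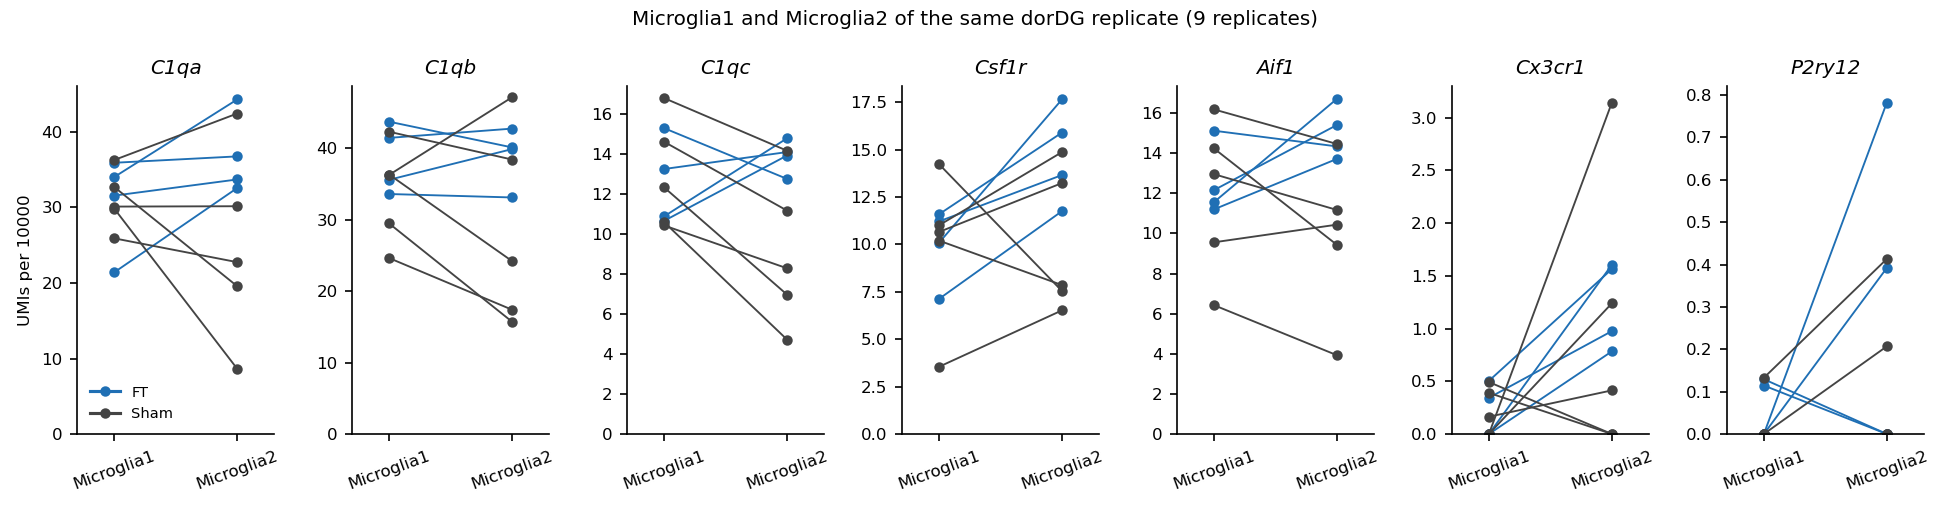
Levels of the 7 genes (UMIs per 10000) in Microglia1 and Microglia2 of the same dorDG replicate, joined by a line, for 4 FT (blue) and 5 Sham (dark grey) replicates. Lines for *C1qa*, *C1qb*, *C1qc* and *Aif1* run both ways, while those of *Csf1r* and *Cx3cr1* rise in 7 of 9 replicates.

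Other genes of these pathways were read from lists, by levels pooled over replicates. Of 14 homeostatic genes with at least 0.5 UMIs per 10000 in a microglial type, 10 were higher in Microglia2, 4 of them by at least 2-fold, and 0 were 2-fold higher in Microglia1. Over all 3463 such genes, 7.48% were 2-fold higher in Microglia2 and 7.39% in Microglia1, 2107 were higher in Microglia2 by any amount, and the median log2 difference was 0.17 (0.36 for the homeostatic list). These 4, named after their values were seen, were the microglial membrane protein *Tmem119* (0.970 UMIs per 10000 in Microglia1 and 3.21 in Microglia2), the transcription factor *Sall1* (0.470 and 1.37), the phagocytic receptor *Mertk* (1.36 and 4.51) and the fructose transporter *Slc2a5* (0.606 and 1.52). *Cst3*, *Sparc* and *Tyrobp*, the highest of the list, were at 719, 19.7 and 19.0 UMIs per 10000 in Microglia1 and 611, 23.4 and 16.6 in Microglia2. Of 10 complement genes other than C1q, 5 were higher in Microglia2 and 0 differed 2-fold. *Calr*, which encodes the C1q-binding chaperone calreticulin, was at 4.58 UMIs per 10000 in Microglia1 and 5.32 in Microglia2, and *C3*, the central complement component, was at 1.27 and 0.934. *C1r* and *C1s*, whose proteases join C1q in the C1 complex, were at 0.0303 and 0 in Microglia1 and at 0.0311 and 0 in Microglia2. Of the ligands, fractalkine (*Cx3cl1*) was at 0.724 and *Il34* at 0.177 in the other dorDG types, while *Csf1* was at 0.318 in Microglia1, 0.156 in Microglia2 and 0.260 elsewhere. Of 5 expressed ligands and partners 4 were higher in Microglia2, 2 of 12 activation genes were at least 2-fold higher in Microglia1 and 0 in Microglia2.

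Genes that tissue dissociation can induce went both ways. Of 13 such genes, 4 were at least 2-fold higher in Microglia1 and 3 in Microglia2. The 3 highest were the chemokine *Ccl3*, at 201 UMIs per 10000 in Microglia1 and 55.9 in Microglia2, *Ccl4*, at 137 and 54.5, and the cytokine *Il1b*, at 56.4 and 8.50. Their part in the split of Microglia1 from Microglia2 was not tested. Markers of macrophages at the brain's borders were scarce: their 10 genes summed to 0.328 to 4.35 UMIs per 10000 over Microglia1 replicates and 0 to 1.93 over Microglia2 replicates, and *Cd209b* was at 0 in both types.

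The venDG counts carry no cell type names, so cells of both regions were clustered together without the 7 genes. The 4 clusters with microglial markers, called Microglia-like, held 548 cells, 197 from dorDG and 351 from venDG. They took in 95 of the 107 Microglia1 and 95 of the 103 Microglia2 cells, and 96.4% of the dorDG Microglia-like cells were of these types. The 7 genes had not been used to form this class. Over 19 replicates *C1qa* was at 33.3 ± 8.09 UMIs per 10000, *C1qb* at 37.8 ± 8.44, *C1qc* at 12.7 ± 2.37, *Csf1r* at 11.8 ± 2.82 and *Aif1* at 12.6 ± 3.10. These levels lay near those of Microglia1 and Microglia2. *Cx3cr1* was at 0.654 ± 0.427 and *P2ry12* at 0.196 ± 0.176.

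The 4 clusters are described by levels pooled over both regions, without a test. The cluster that held 90 of the 95 Microglia1 cells, led by inflammatory genes such as *Il1b* and *Ccl2*, had *Cx3cr1* at 0.184. The next cluster, led by *Cd83* and *Nfkbia*, had it at 0.923, and another, of shallow cells (median 1365 UMIs) led by *Aif1* itself, had it at 0.692 with *Aif1* at 22.1. The last, of 101 cells with a median of 1.06% ribosomal UMIs, had *Cx3cr1* at 2.79, *P2ry12* at 0.522, *Csf1r* at 17.0, *C1qa* at 45.0 and *Il1b* at 0.447. *C1qa* lay between 33.2 and 36.5 in the other 3. By region, *C1qa* of the last cluster was at 51.1 in venDG but at 30.6 in dorDG, beside 30.1 to 31.6 in the dorDG cells of the other 3.

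A further cluster of 57 cells, led by MHC class II genes, held C1q near the levels of Microglia1 and Microglia2 (*C1qa* at 30.8, *C1qb* at 35.1 and *C1qc* at 13.1) with *Aif1* at 14.9. By the authors' names, its 17 dorDG cells were Microglia1 (10 cells) or Microglia2 (7 cells). The results of those 2 types therefore include them. Its border macrophage markers summed to 7.24 UMIs per 10000, against 0.377 to 0.973 in the Microglia-like clusters, and it was left unnamed and outside the class. It made up 1.98% of cells in dorDG FT, 0.813% in dorDG Sham, 2.26% in venDG FT and 2.30% in venDG Sham replicates, on average.

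The ribosome-poor microglia came largely from particular reactions, which allowed a comparison within replicates. Where the labels name 2 reactions for a replicate, they are called first and second by the order of their names. In 4 replicates both held at least 5 Microglia-like cells. All 39 cells of the second reactions were ribosome-poor and lay in this last, ribosome-poor cluster, against 11 of the 121 cells of the first reactions in that cluster. The pairing is that of the labels, and it was kept as a block in the test.

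*Aif1* was lower in the second reactions under every fit, and *Cx3cr1* higher in them under most. *Aif1* was at 13.5, 16.5, 15.4 and 13.1 UMIs per 10000 in the first reactions of dorDG FT 2, venDG FT 2, venDG Sham 1 and venDG Sham 2, and at 3.12, 3.33, 1.20 and 2.65 in their second reactions. The ranges did not overlap. The log2 fold change of first against second was 3.54 ± 0.58 (SE; edgeR quasi-likelihood F-test, Benjamini-Hochberg adjusted p = 1.76e-08), and it passed in each of the 9 alternative fits, at 2.53 with library size alone and 2.60 with limma. *Cx3cr1* was at 0.273, 0.914, 0.329 and 1.16 in the first and 2.08, 3.81, 4.19 and 1.99 in the second reactions (log2 fold change −1.31 ± 0.59, edgeR adjusted p = 0.0703). With library size alone it was −2.26 and with limma −2.33. It was lower in the first reaction in 4 of 4 replicates, on 2 to 20 UMIs a reaction. It did not pass with DESeq2 (adjusted p = 0.310), without a filter (edgeR adjusted p = 0.661), without venDG FT replicate 2 (0.361) or without venDG Sham replicate 1 (0.360).

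For the C1q chains and *Csf1r* the direction or the call depended on the scaling. Of 3628 genes, 1786 (49.2%) were called, 32.9% higher and 16.3% lower in the first reaction with TMM scaling, and the higher calls were 66.9% of all calls with TMM, 34.7% with library size alone and 84.8% with DESeq2. The median over all genes was 0.14 with TMM, −0.85 with library size alone and 0.39 with DESeq2. *C1qa* was at 35.6, 41.9, 34.2 and 35.5 UMIs per 10000 in the first and 17.7, 52.1, 25.7 and 71.0 in the second reactions, higher in the first in 2 of 4. Its log2 fold change was 1.07 (edgeR adjusted p = 0.0839) with TMM and −0.01 with library size alone, or 0.93 and 0.84 above the median of all genes. *C1qb* (1.16) and *C1qc* (0.93) were likewise called with TMM and not with library size alone (0.08 and −0.14), and the calls of all 3 chains were lost without dorDG FT replicate 2 (edgeR adjusted p from 0.360 to 0.483) or venDG Sham replicate 1 (0.348 to 0.509). *Csf1r* was at 8.46, 8.36, 12.3 and 8.37 in the first and 16.7, 17.4, 16.7 and 17.9 in the second reactions, lower in the first in 4 of 4 per 10000 UMIs, with a log2 fold change of 0.19 with TMM (edgeR adjusted p = 0.787) and −0.89 with library size alone (0.0680). *P2ry12*, below the filter, had 0 to 7 UMIs in any reaction. A difference between 2 genes depends little on scaling: *Aif1* changed by 3.36 log2 units more than *Csf1r* with TMM and by 3.42 with library size alone.

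**Figure D4:**
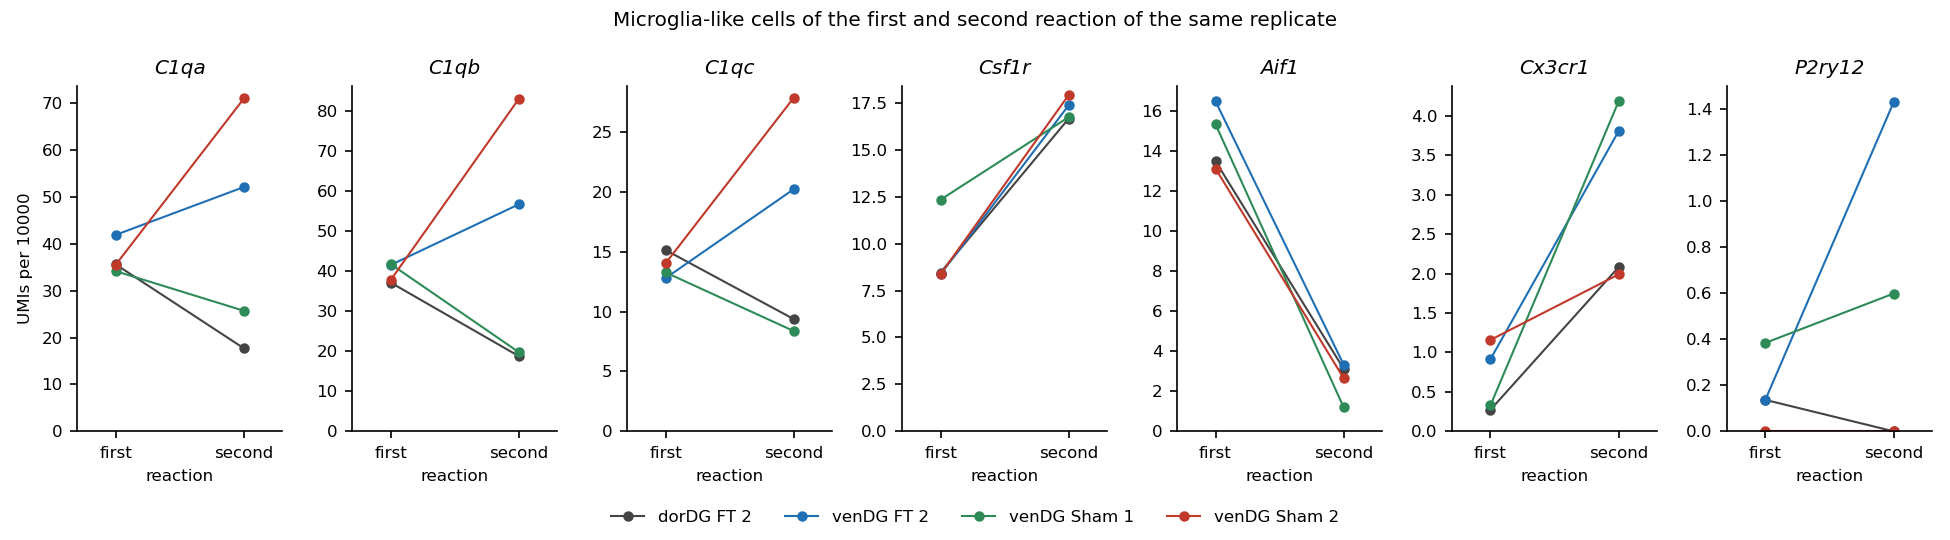
Levels of the 7 genes (UMIs per 10000) in Microglia-like cells of the first and second reactions of 4 replicates, each joined by a line. *Aif1* is lower in all second reactions and *Cx3cr1* and *Csf1r* higher, while the C1q chains run both ways.

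Among the lists, with TMM scaling, 13 of 13 tested genes of the dissociation list and 8 of 8 activation genes were called higher in the first reaction, the latter including *Spp1*, *Ftl1*, *B2m* and *Cd74*. Of 14 homeostatic genes 4 were called higher (*Tyrobp*, *Cst3*, *Sparc* and *Gpr183*) and 0 lower. Of 11 complement genes 3 were called higher, *C3*, *Clu* and *Calr*. Of 6 ligands and partners *Gnai2* was called higher and *Nt5e* and the UDP receptor *P2ry6* lower. Over all tested genes 32.9% were called higher with TMM, and library size alone called 815 higher and 1533 lower, so these counts hold for TMM scaling. For *Aif1*, *Csf1r* and *Cx3cr1* a like difference was seen between ribosome-poor and other Microglia-like cells of 7 replicates, given without a test because they overlap with the reactions. *Aif1* was at 1.63 ± 1.34 in ribosome-poor and 13.7 ± 2.95 in the other cells (lower in 7 of 7), *Csf1r* at 14.98 ± 2.98 and 10.5 ± 2.62 (higher in 6 of 7) and *Cx3cr1* at 2.01 ± 1.61 and 0.574 ± 0.347 (higher in 5 of 7). The C1q chains had lower means in ribosome-poor cells (*C1qa* at 29.2 ± 21.7 and 35.5 ± 4.26), and each was higher there in 2 of 7 replicates.

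The main question of the study, whether fluoxetine changed expression, was put to each microglial population. In Microglia1 of dorDG, FT and Sham replicates (4 against 5) had nearly equal levels of the panel. *C1qa* was at 21.4, 31.6, 35.9 and 34.0 UMIs per 10000 in FT and 25.9, 32.7, 29.9, 36.3 and 30.1 in Sham. FT replicate 1 was the lowest and the other 3 lay within the Sham range, and the groups overlapped for every gene of the panel. The log2 fold changes of the 5 tested genes ran from −0.09 ± 0.24 (*C1qc*) to 0.17 ± 0.21 (*C1qb*), all with an edgeR adjusted p of 0.999, and the 95% intervals of *C1qa* (−0.52 to 0.43) and *Csf1r* (−0.61 to 0.67) held no 2-fold change. *Cx3cr1* and *P2ry12* were below the filter of 0.5 UMIs per 10000. Neither edgeR nor DESeq2 called any of the 2797 genes (0%), although 76 fell under 0.05 before adjustment, so the count of 0 of 5 tested genes of the panel equals the background.

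In Microglia2 all 6 tested genes of the panel had a higher mean in FT, but none passed. *C1qa* was at 32.6, 33.7, 36.8 and 44.3 UMIs per 10000 in FT and 22.8, 19.6, 8.64, 42.4 and 30.2 in Sham. *Csf1r* was at 13.7, 11.8, 15.9 and 17.7 in FT and 13.2, 6.52, 7.86, 7.55 and 14.9 in Sham. *Aif1* was at 16.7, 13.7, 14.3 and 15.4 in FT and 11.2, 10.4, 3.93, 9.43 and 14.5 in Sham. FT replicates were narrow and Sham replicates wide, and the groups overlapped for all 7 genes.

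The log2 fold changes in Microglia2 were 0.91 ± 0.61 for *C1qa*, 0.82 ± 0.61 for *C1qb*, 0.96 ± 0.62 for *C1qc*, 0.87 ± 0.72 for *Cx3cr1*, 0.83 ± 0.62 for *Csf1r* and 0.86 ± 0.62 for *Aif1*, each with an edgeR adjusted p of 0.967. The median over all tested genes was 0.11. Over the 19 fits, alternatives included, they ran from 0.16 to 1.12 for *C1qa*, 0.26 to 1.04 for *C1qb*, 0.077 to 1.18 for *C1qc*, 0.52 to 2.76 for *Cx3cr1*, 0.25 to 1.07 for *Csf1r* and 0.17 to 1.08 for *Aif1*, the highest *Cx3cr1* value coming from limma and the lowest C1q values from both types summed. In cells with at least 1000 genes *C1qa* was at 0.50, *Csf1r* at 0.25 and *Aif1* at 0.17. Of 3441 genes 2 were called (0.0581%), neither of them in the panel: *Ttr*, the thyroxine carrier transthyretin of the choroid plexus (log2 fold change 3.43, edgeR adjusted p = 0.0241), and *Catsperg1* (4.27, adjusted p = 0.0241). Without Sham replicate 2 or without Sham replicate 3 the count was 0. DESeq2 and limma called 0, and 140 genes had an unadjusted p under 0.05. In an exact two-sided permutation test of the levels alone, *Aif1* gave p = 0.0476, *C1qc* 0.0635, *Csf1r* 0.0952, *C1qa* 0.111, *C1qb* 0.190, *P2ry12* 0.571 and *Cx3cr1* 0.714, before any adjustment, where the smallest p that 4 against 5 replicates allow is 0.0159.

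Sham replicate 3 had the lowest *C1qa*, *C1qb*, *C1qc* and *Aif1* of Microglia2, and 72.7% of its 11 cells were ribosome-poor, as were 57.1% of the 7 cells of Sham replicate 4. The ribosome-poor share of Microglia2 was 33.3% in Sham and 13.8% in FT. Without Sham replicate 3 the log2 fold changes of *C1qa*, *C1qb*, *C1qc*, *Csf1r* and *Aif1* were 0.57, 0.52, 0.66, 0.55 and 0.52, and that of *Cx3cr1* was 1.36. The 20 microglial markers summed to 168 to 214 UMIs per 10000 in FT and 99.6 to 209 in Sham (*P2ry13* and *Selplg* fell below the filter, 12 of the 18 tested had a fold change above 0 and 0 were called). The part of marker levels and of ribosome-poor cells in the result was not tested. Of the lists, 0 of 14 homeostatic, 0 of 11 complement, 0 of 10 activation and 0 of 13 dissociation genes were called, with median log2 fold changes of 0.07, 0.22, 0.88 and 0.24.

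In venDG Microglia-like cells (5 replicates a group) the panel again overlapped between FT and Sham. *C1qa* was at 29.8, 43.6, 45.5, 49.1 and 34.2 UMIs per 10000 in FT and 33.5, 41.3, 19.0, 35.2 and 21.9 in Sham, with log2 fold change 0.47 ± 0.25 (edgeR adjusted p = 0.830). The lowest values came from Sham replicates 3 and 5, of 9 and 12 cells, and 77.8% of the cells of Sham replicate 3 were ribosome-poor. *C1qb* changed by 0.39 ± 0.24, *C1qc* by 0.11 ± 0.23, *Cx3cr1* by 0.39 ± 0.58, *Csf1r* by −0.01 ± 0.22 and *Aif1* by 0.29 ± 0.25, and none passed (edgeR adjusted p from 0.830 to 0.999). *P2ry12* was below the filter with 0.254 ± 0.0979 in FT replicates and 0.317 ± 0.255 in Sham replicates (n = 5 each, two-sided exact permutation p = 0.651). No gene of 2896 was called (0%) by edgeR or DESeq2, and 155 fell under 0.05 before adjustment. The microglial marker sum was 195 to 230 in FT and 133 to 218 in Sham, and its part in the result was not tested. Of the lists, 0 of 13 homeostatic (median log2 fold change 0.22), 0 of 10 complement (−0.08), 0 of 8 activation (0.43) and 0 of 13 dissociation genes (0.26) were called.

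**Figure D5:**
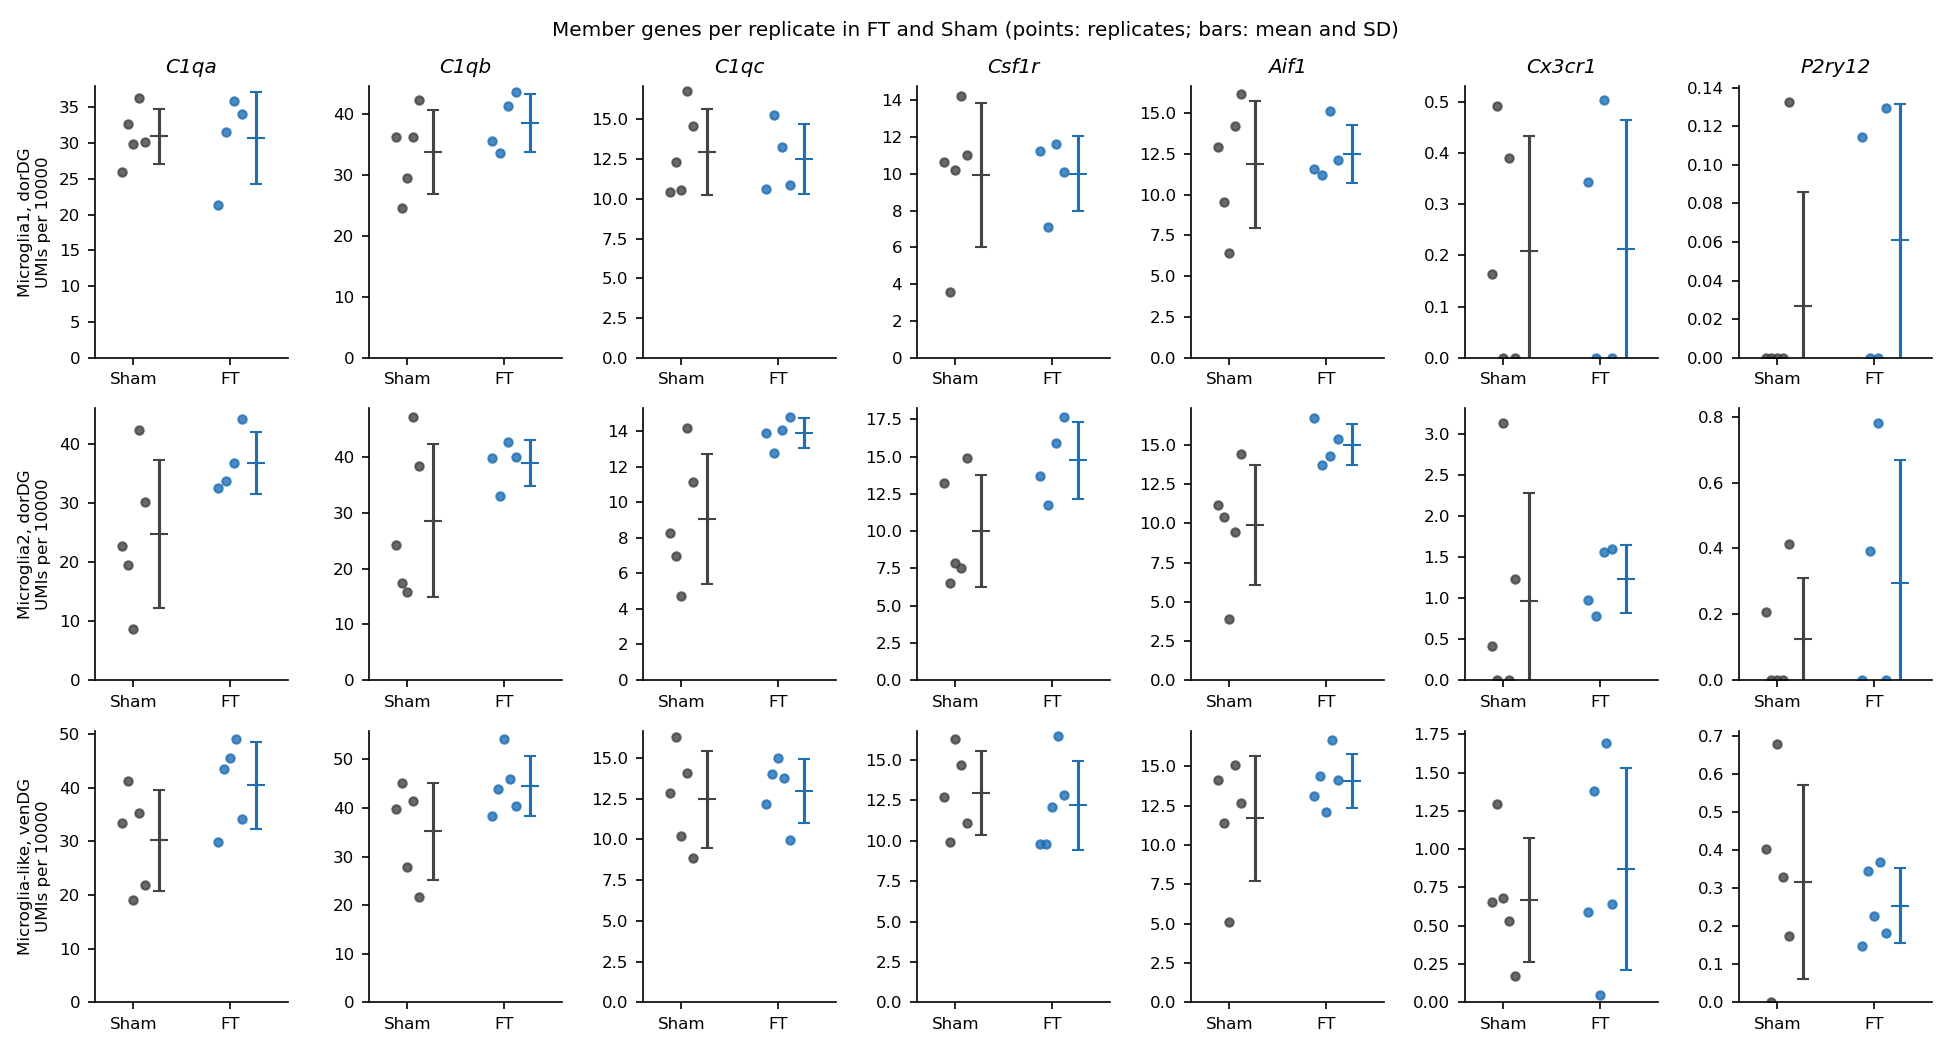
Levels of the 7 genes (UMIs per 10000) by replicate in FT and Sham for Microglia1 and Microglia2 of dorDG and Microglia-like cells of venDG; dots are replicates and bars are the group mean and SD, drawn down to 0 at the lowest. FT and Sham overlap in every panel.

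The regions were compared over the 19 replicates with treatment as a term. This takes all 19 as independent, although both regions appear to share animals. All 6 tested genes had a lower mean in dorDG than in venDG, and none passed. The log2 fold change was −0.18 ± 0.17 for *C1qa*, −0.18 ± 0.16 for *C1qb*, −0.04 ± 0.16 for *C1qc*, −0.21 ± 0.17 for *Csf1r* and −0.07 ± 0.18 for *Aif1*, each with an edgeR adjusted p of 0.9995. The 95% intervals of these 5 genes reached no further than −0.56 and 0.30. For *Cx3cr1* it was −0.63 ± 0.41 (95% interval −1.47 to 0.21), and −0.17 with limma, where *Csf1r* was at −0.23. With the replicate number within each treatment as a block edgeR called 7 genes, 5 higher and 2 lower in dorDG and none of the panel, and *C1qc* was at 0.0084 and *Cx3cr1* at −0.81. *Cx3cr1* was at 0.528 ± 0.252 UMIs per 10000 in dorDG (n = 9). *P2ry12*, below the filter, was at 0.0961 ± 0.0996 in dorDG, on 9 UMIs, and at 0.254 and 0.317 in the venDG groups, on 24 and 19 UMIs (without the filter, log2 fold change −1.47, edgeR unadjusted p = 0.00743, adjusted p = 0.778). Of the homeostatic list 0 of 13 genes were called, with a median of −0.14 and 1 of 13 above 0. Without the block, 0 of 2907 genes (0%) were called by edgeR or DESeq2, and 121 fell under 0.05 before adjustment. Of 7 tested oligodendrocyte markers 6 were higher in dorDG (median 0.66), with sums of 29.2 to 131 UMIs per 10000 in dorDG and 21.1 to 98.9 in venDG replicates, and 0 were called. Their part in the result was not tested.

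Nor did the FT effect on the panel differ detectably between regions. The interaction (FT effect in dorDG minus that in venDG) ran from −0.29 ± 0.34 for *C1qa* to 0.25 ± 0.35 for *Csf1r*, with an edgeR adjusted p of 0.9998 throughout. Neither edgeR nor DESeq2 called any of the 2907 genes (0%), and unadjusted p-values were under 0.05 for 54. Over all fits of the FT, region and interaction comparisons, alternatives included, the tested genes of the panel (never *P2ry12* under the filter, and not *Cx3cr1* in Microglia1) were called in 0 of 728, with a lowest adjusted p of 0.600.

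The share of microglia was compared last. Microglia2 made up 10.4% ± 2.23 of dorDG cells in FT (8.40 to 12.6%) and 6.50% ± 2.55 in Sham (5.07 to 11.0%; exact two-sided permutation p = 0.0635, adjusted p = 0.190 over 4 comparisons, n = 4 and 5). Only Sham replicate 3 lay above the lowest FT replicate, and without it, chosen after its value was seen, the difference was 5.05 percentage points. Microglia1 made up 9.17% ± 3.87 and 8.32% ± 1.92 (exact permutation p = 0.683, n = 4 and 5). Microglia-like cells made up 18.2% ± 4.77 in FT and 14.1% ± 2.13 in Sham of dorDG (exact permutation p = 0.127, n = 4 and 5), and 16.0% ± 2.45 and 20.2% ± 5.14 in venDG (exact permutation p = 0.143, n = 5 each). Among cells that were not ribosome-poor, the dorDG differences of Microglia1 and of Microglia-like cells turned to −4.90 and −2.13 percentage points (exact permutation p = 0.127 and 0.571, n = 4 and 5).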

How the data were processed

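Tissue punches of dorDG and venDG were profiled in 108 libraries of 27 droplet reactions (10x 3′ v2). The deposited values are UMI counts per gene and cell, made by the authors with Cell Ranger 2.1.0. The submitters' processing notes also list Seurat 3 and the build rn5, whose role is not stated. The authors' cell type names cover dorDG only. Of 3517 cells, 170 venDG columns with a second suffix (167 repeating a barcode of the same reaction) were left out. No column of values was left without a sample (0 columns). No doublet caller was run, and the minimum of 1000 genes stated in the methods was used as an alternative, not as a filter.

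Counts were summed per replicate, with at least 5 cells. Genes whose mean level reached 0.5 UMIs per 10000 entered the edgeR (4.0.16) quasi-likelihood F-test, TMM scaling and Benjamini-Hochberg adjustment over all tested genes in R 4.3.3, and counted as called at an adjusted p of at most 0.2 and a fold of at least 1.25. DESeq2 1.42.0 and limma 3.58.1 were alternatives, as were other scaling, filters, cell sets, a replicate block and leaving out each replicate. Some cell sets and all alternatives of the reaction comparison were chosen after seeing the data. Microglia-like cells came from joint clustering with scanpy 1.11.5 without the 7 genes (2000 variable genes, 30 components, 15 neighbours, Leiden resolution 2.0). A cluster was named from at least 3 markers that were 2-fold higher than in other cells and found in at least 10% of its cells.

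The 7 genes are named in every comparison. Of each list, the called genes (at most 6) and, as examples, the 3 of highest level could be named, with the 10 genes most like the panel by correlation of log2(UMIs per 10000 + 0.1). The level of 1 listed complement gene is not reported here. The genes and lists were chosen with earlier results of these data known. The labels do not tie numbered replicates to animals beyond the pools that the methods describe. P-values and the intervals of fold changes therefore measure the spread between these samples. Intervals of shares and of UMI ratios cover counting error only. The test was checked on simulated data, in which 90 to 100 genes were changed at each fold at once. Of genes changed 2-fold, 27.7% were recovered in Microglia1, 7.61% in Microglia2, 52.7% in venDG Microglia-like cells and 77.9% between regions. Of genes changed 4-fold, the shares were 85.6%, 38.9%, 96.9% and 100%. Where fewer genes change the adjustment is stricter, so recovery in the FT and region comparisons may be lower. Python 3.11.15, numpy 2.4.6, pandas 2.3.3 and scipy 1.17.1 were used.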

Additional observations from a re-analysis of the deposited data

Results flagged for a closer look

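In 4 of 68 groups of 4 or 5 replicates, 1 replicate lay far from the others by Dixon's criterion. Chance alone marks about 1 group in 20 where values are normally distributed. That rate does not hold for *P2ry12*, since 1 replicate with a UMI beside others at 0 is always marked. *Cx3cr1* in Microglia-like cells of dorDG Sham replicate 3 was at 1.02 UMIs per 10000, against 0.274 to 0.408 in the other Sham replicates. *P2ry12* in Microglia-like cells of dorDG Sham replicate 5 was at 0.244 (2 UMIs), against 0 to 0.0685, and in Microglia1 of the same replicate at 0.133 (1 UMI), against 0. Microglia2 made up 11.0% of the cells of dorDG Sham replicate 3, against 5.07 to 6.09% in the others.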

How the results depend on the processing

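Of 753 refitted fold changes of the tested genes of the panel (*P2ry12* not among them), 676 kept their direction and side of the threshold, 61 changed sign and 16 were no longer called. The setting of at least 1 cell per replicate gave the main fit again in the FT, region and interaction comparisons. Its fold changes could only be kept, and it is among the 19 fits of Microglia2 and the 728 given above. In Microglia1 the sign changed for *C1qa* without a filter (0.047) and with both types summed (0.16), *C1qc* when summed (0.077), *Csf1r* in cells with at least 2% ribosomal UMIs (−0.048), and *Aif1* in those cells (−0.15), in cells with at least 1000 genes (−0.12) and with the replicate block (−0.13). In venDG it changed for *C1qc* with the MHC class II cluster added (−0.041), *Cx3cr1* with limma (−0.045), and *Csf1r* without a filter (0.21) and in cells with at least 2% ribosomal UMIs (0.060). Between regions *C1qc* changed to 0.0084 with the replicate block, 0.018 in cells with at least 2% ribosomal UMIs, 0.014 in cells with at least 1000 genes and 0.11 without the ribosome-poor cluster. In the interaction *C1qc* changed to 0.0054 (library size alone), 0.0070 (limma) and 0.12 (MHC class II cluster added), *Cx3cr1* to −0.021 (DESeq2), −0.13 (replicate block) and −0.060 (second suffix kept), and *Aif1* to 0.043 (at least 2% ribosomal UMIs) and 0.0067 (MHC class II cluster added). Between reactions *C1qa* changed to −0.013 and *C1qc* to −0.14 with library size alone, *C1qc* to −0.073 with limma, and *Csf1r* to −0.89 with either. The cause was not tested.

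Leaving out each replicate in turn gave, in Microglia1, −0.12 to 0.10 (*C1qa*), −0.21 to 0.00048 (*C1qc*), −0.16 to 0.18 (*Csf1r*) and −0.13 to 0.14 (*Aif1*). In venDG it gave −0.010 to 0.24 (*C1qc*) and −0.12 to 0.080 (*Csf1r*), between regions −0.095 to 0.044 (*C1qc*) and −0.15 to 0.024 (*Aif1*), and in the interaction −0.25 to 0.017 (*C1qb*), −0.21 to 0.035 (*C1qc*), −0.34 to 0.37 (*Cx3cr1*) and −0.28 to 0.045 (*Aif1*).

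Without a filter edgeR called 5 genes in Microglia1, 13 in venDG, 10 between regions and 5 in the interaction. The 2 calls of Microglia2 became 0 with DESeq2, limma, the replicate block, cells with at least 2% ribosomal UMIs, cells with at least 1000 genes and both types summed, and 0 to 3 without single replicates. The ranges without single replicates were 0 to 2 in venDG, 0 to 1 between regions and 1374 to 1644 between reactions. With the replicate block edgeR called 1 gene in venDG, 7 between regions and 0 in Microglia1 and the interaction. The labels do not say that a number marks shared animals. The methods, describing the bulk tissue, say that matching Sham and FT samples were handled in parallel. A number may thus mark a processing batch. Deviations of same-numbered samples correlated over 0.1 in 1 of 5 pairs in venDG, 2 of 4 in Microglia1 and 1 of 4 in Microglia2. These few pairs cannot settle it, and the FT fits, kept without the block, may leave out a pairing. With it *C1qa* changed by −0.10 in Microglia1, 0.67 in Microglia2 and 0.51 in venDG, and no gene of the panel was called. Between regions the deviations correlated over 0.1 in 8 of 9 pairs (median r 0.197), and both regions appear to share animals. The main region fit, planned without the block, may thus leave out a pairing, and its block values are given beside it.

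Between reactions, 1313 genes were called with DESeq2, 2348 with library size alone, 1799 with limma, 2183 without a filter and 1922 with no replicate block. Shares (FT minus Sham, in percentage points) changed to −4.90 for Microglia1 and −2.13 for dorDG Microglia-like cells among cells that were not ribosome-poor. Microglia2 gave 3.78 among cells with at least 1000 genes (exact permutation p = 0.0159, the smallest possible, not adjusted over the 4 comparisons). Both cell sets were chosen after the data were seen. Without single replicates they ran from −0.17 to 2.72 (Microglia1), 3.21 to 5.05 (Microglia2), 2.94 to 6.45 (Microglia-like, dorDG) and −5.95 to −2.38 (venDG). *P2ry12* was below the filter in every comparison, and in Microglia2 Sham replicates 3 and 4 held 12726 and 10603 UMIs.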
